A study of Mus musculus with 5 samples.

Results

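The actin cytoskeleton genes are 49 genes that encode actin and the proteins that store, polymerise, branch, cap, bundle, anchor and contract actin filaments, chosen by their symbols from the 55487 genes of a count table. They were read in 5 RNAseq libraries of macrophages sorted from mouse aortas. In sum these genes held between 4.58% and 6.17% of all counts in a library, and 27 of the 49 (55.1%) had more than 3 counts in all 5 libraries. The beta-actin gene *Actb* and the thymosin gene *Tmsb4x* alone made up 39.2% to 61.6% of the counts of the 49 genes. Between the genotypes edgeR's quasi-likelihood test called 0 of all 7905 genes tested, and so 0 of the 46 members among them. Libraries of the same genotype varied widely, with a median within-genotype SD of 4.32 on the log2 CPM scale.

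The study asked which genes the transcription factor ZEB1 controls in macrophages of the atherosclerotic plaque. It compared 2 libraries of Zeb1WT/ApoeKO mice with 3 libraries of Zeb1ΔM/ApoeKO mice, all male and fed a Western diet after chow. Both genotypes lack *Apoe*, which makes mice prone to plaques, and carry floxed alleles of *Zeb1*, while only Zeb1ΔM/ApoeKO mice carry Cre, expressed from the *Lyz2* locus that is active in macrophages and other myeloid cells. Viable cells of aortas were sorted as CD45+ F4/80+ per the labels, and also as CD11b+ per the study's methods. Cells of several mice were mixed, and cDNA was amplified with a kit for very small amounts of RNA. Since cells were mixed, a library is a pool of animals. The study describes its replicates as independent, and the labels do not say which animals went into which library, so p-values measure the spread between these libraries.

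Actin monomers assemble into filaments that push the membrane forward when a macrophage crawls, spreads or engulfs a particle. Profilin and the thymosins hold the monomers, the Arp2/3 complex starts new branches when WASP family proteins switched on by small GTPases activate it, capping proteins end growth, and cofilin takes filaments apart. Talin, vinculin and zyxin couple filaments to integrins, ezrin and moesin to the membrane, and myosin II pulls on them.

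Several members share sequence with other genes, which bears on how reads were divided among them. *Myl12a* and *Myl12b*, neighbours on chromosome 17 that encode regulatory light chains of myosin II, have 18 differences in 519 coding bases (96.5% identity) and 1 identical run of 105 bases. Their first 75 coding bases are shown because all of the differences within them fall before base 19, and capitals mark the 4 bases that differ.
*Myl12a*: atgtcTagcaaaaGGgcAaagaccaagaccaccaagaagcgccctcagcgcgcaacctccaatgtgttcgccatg
*Myl12b*: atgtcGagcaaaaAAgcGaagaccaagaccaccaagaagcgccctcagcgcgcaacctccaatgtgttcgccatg

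In the GENCODE M21 transcripts, 57.8% of the 75-base windows of *Capza1*, 49.7% of those of *Rac1*, 33.5% of those of *Actg1* and 24.7% of those of *Myl12b* also occurred in a transcript of another gene. Windows of *Tmsb4x*, *Pfn1*, *Coro1a*, *Lsp1* and *Capzb* were all unique to their gene. The counts were expected counts, in which reads that fit several genes are divided by estimation, so values of the genes that share windows are uncertain in a way that the replicates do not show.

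Promoters were read for 43 of the 49 members from RefSeq sequences of GRCm38.p6, each window running from 250 bases before to 50 after an annotated start. The CArG box, the element bound by serum response factor, a textbook regulator of actin genes, was found in windows of 4 of these 43 genes (9.30%) and of 488 of all 27025 genes in the table (1.81%). Upstream stretches of these 4 genes are shown with the box in capitals.
*Actg1*, chr11:120348551-120348610, minus strand: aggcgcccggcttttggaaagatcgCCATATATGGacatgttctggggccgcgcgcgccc
*Myl6*, chr10:128493025-128493084, minus strand: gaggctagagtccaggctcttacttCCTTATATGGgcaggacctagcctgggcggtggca
*Vcl*, chr14:20929148-20929205, plus strand: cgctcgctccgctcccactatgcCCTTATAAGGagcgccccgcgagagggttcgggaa
*Arpc4*, chr6:113377863-113377897, plus strand: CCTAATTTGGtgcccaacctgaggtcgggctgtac

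The box lay 90 bases before the start in *Actg1*, 50 in *Myl6*, 227 in *Vcl* and 250 in *Arpc4*. The E-box CACCTG, which ZEB1 binds, was searched on both strands (CACCTG and CAGGTG) and was found in windows of 10 of the 43 members (23.3%) and of 22.6% of all genes in the table. The members with an E-box were *Actr2*, *Arpc1a*, *Arpc2*, *Capg*, *Dstn*, *Gmfg*, *Gsn*, *Myl12b*, *Rhoa* and *Tmsb10*, and none of their windows held a CArG box. A match describes these letters only.

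Total counts ranged from 20118545 to 50649912, and 3 counts, used as the floor of detection, were 0.0592 to 0.149 CPM (counts scaled to a common library total). Such floors cover counting error only, because amplified reads are not independent molecules. Both libraries numbered 1 stood apart. Zeb1WT/ApoeKO replicate 1 had 1714 genes with at least 100 counts and Zeb1ΔM/ApoeKO replicate 1 had 870, against 3173 to 4421 in the other 3 libraries, although Zeb1ΔM/ApoeKO replicate 1 had the most genes with any count (20919, against 7395 to 10689). Mitochondrially encoded genes took 3.35% and 4.61% of counts in the libraries numbered 1 and 1.24% to 1.60% in the rest. *Lyz2*, expressed by macrophages, had 161607 to 869804 counts in every library, and the 11 macrophage and myeloid markers summed to 34959 to 35682 CPM in Zeb1WT/ApoeKO and 23049 to 37790 CPM in Zeb1ΔM/ApoeKO. In the libraries numbered 1 some macrophage markers were at or near the floor and others were not. *Cd68* had 0 and 10 counts there, against 36172 to 46735 in the rest, and *C1qa* had 0 and 5, against 48430 to 77519. *C1qb* had 38760 and 398502 there, against 177721 to 232428 in the rest. Of the 11 markers, 4 and 1 were at or under the floor in Zeb1WT/ApoeKO replicates 1 and 2. In Zeb1ΔM/ApoeKO replicates 1, 2 and 3 the number was 2, 1 and 2. *Mertk* had 0 counts in 4 libraries and 22 in Zeb1ΔM/ApoeKO replicate 1. *Zeb1* itself had 0 counts in 4 libraries and 22 in Zeb1ΔM/ApoeKO replicate 1, so the counts could not check the genotype labels. *Apoe* had 0 to 86 counts.

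Members were above the floor in 37 and 45 of 49 cases in Zeb1WT/ApoeKO replicates 1 and 2 and in 35, 45 and 47 in Zeb1ΔM/ApoeKO replicates 1, 2 and 3. In Zeb1ΔM/ApoeKO replicate 1 the members' share (71.4%) was the lowest of the 3 sets compared, below 72.7% of 66 other actin regulators and 75.7% of the 21705 genes above the floor in any library, and in the other 4 libraries it was the highest. In all 5 libraries 55.1% of the members were above the floor, against 24.2% of the other regulators and 4.999% of the 21705 genes. Since 11284 of the 21705 genes were above the floor in a single library, genes were also matched on abundance. Of the 34 members with at least 1000 counts in each of the 3 libraries not numbered 1, 27 (79.4%) were above the floor in Zeb1WT/ApoeKO replicate 1 and 28 (82.4%) in Zeb1ΔM/ApoeKO replicate 1. For all 1074 genes with that many counts these shares were 71.3% and 69.8%, and for the other actin regulators they were 11 of 13 (84.6%) in both. The members' share still at 1000 counts or more was 50.0% in Zeb1WT/ApoeKO replicate 1, against 49.3% of all 1074 genes and 53.8% of the 13 other regulators. In Zeb1ΔM/ApoeKO replicate 1 it was 35.3%, against 23.6% of all 1074 genes and 15.4% of the 13.

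**Figure D1:**
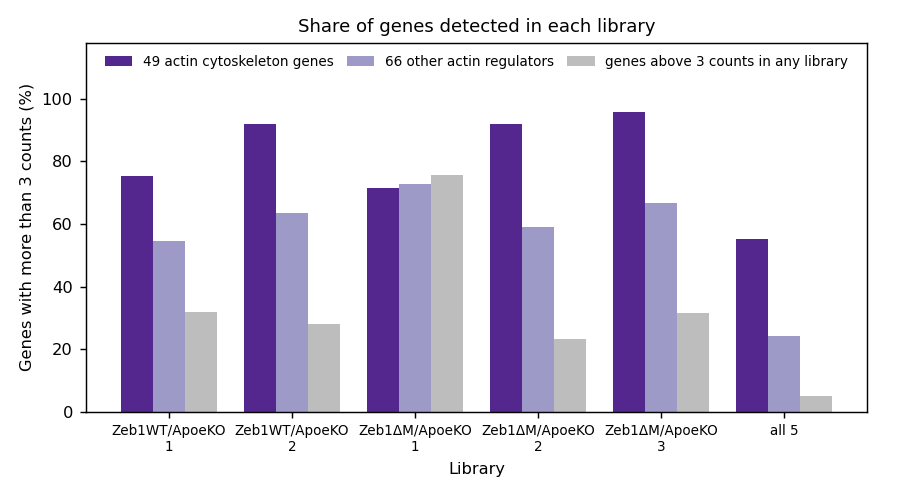
Bars show the percent of genes with more than 3 counts (y axis) in each library and in all 5 libraries (x axis), for the 49 members, 66 other actin regulators and the 21705 genes above 3 counts in any library. The members stand highest in 4 of the libraries and in the set of all 5 (55.1%), and lowest of the 3 sets in Zeb1ΔM/ApoeKO replicate 1 (71.4%).

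Of the 49 members, 21 were at or under the floor in at least 1 of the libraries numbered 1 and 5 in both, against 7 in at least 1 of the other 3 libraries. In CPM, 19 members (38.8%) were lower in both of them than in any other library and 3 (6.12%) were higher in both, against 5.36% and 16.5% of the 21705 genes above the floor in any library. Among genes with at least 1000 counts in each of the other 3 libraries the shares were close, with 50.0% of 34 members lower and 8.82% higher, against 52.2% and 7.91% of 1074 genes. Without these libraries 42 members were above the floor in every library, in place of 27. The median range of a member, from its lowest to its highest log2(CPM + 1), was 7.52 over the 5 libraries and 1.65 over the 3 others.

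**Figure D2:**
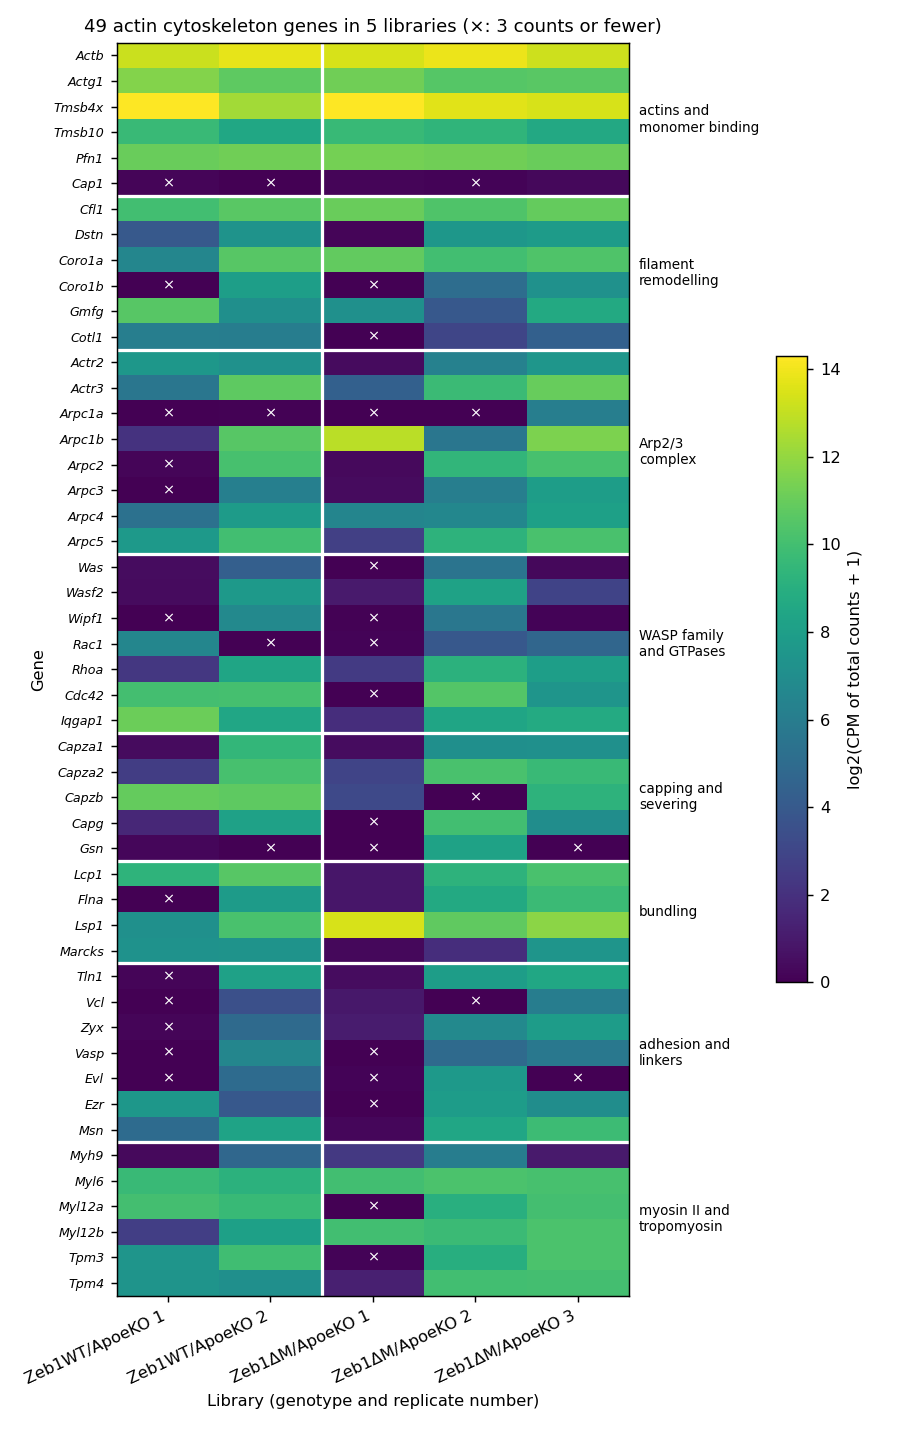
Each row is a gene, grouped by role, and each column a library; colour gives log2(CPM of total counts + 1) and a cross marks 3 counts or fewer. *Actb* and *Tmsb4x* are bright in all 5 columns, and most crosses lie in the columns of the libraries numbered 1.

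The genotypes were compared over all 7905 genes that passed a filter on low counts, 46 of them members. edgeR called 0 genes at an adjusted p under 0.05 (0% of genes tested), and 86 genes (1.09%) had an unadjusted p under 0.05, none of them a member. DESeq2 called 790 of 6519 genes with an adjusted p (12.1%), and 0 of the 41 members among them. limma-voom called 234 genes (2.96%) and 0 of the 46 members. All 46 members had an adjusted p of 1 in edgeR, and the lowest unadjusted p was 0.0736, for *Lsp1*. The spread between libraries was wide: the common dispersion was 6.44, and the members' median SD of log2 CPM over the 5 libraries was 4.05, against 3.86 for all genes tested. All libraries of a group are pooled cells, and fewer cells of a type and less RNA per cell cannot be told apart in them.

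Of the 46 members tested, 30 (65.2%) had a log2 fold change above 0 (Zeb1ΔM/ApoeKO over Zeb1WT/ApoeKO), as had 60.9% of all genes tested. Their median was 0.45, against 0.78 for all genes. The medians moved with the scaling, to 0.64 for the members and 1.24 for all genes with RLE factors and to -0.32 and 0.29 with upper-quartile factors, with which 19 members were above 0. In limma-voom, which also weights the libraries, the members' median lay above that of all genes, at 1.20 against -0.30. Of the 29 members for which a fold change is given below, 10 lay above the median of all genes, and 2 (*Lsp1* and *Arpc1b*) had a fold change larger than its SE. In what follows, library values are given in the order Zeb1WT/ApoeKO replicates 1 and 2, then Zeb1ΔM/ApoeKO replicates 1, 2 and 3.

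**Figure D3:**
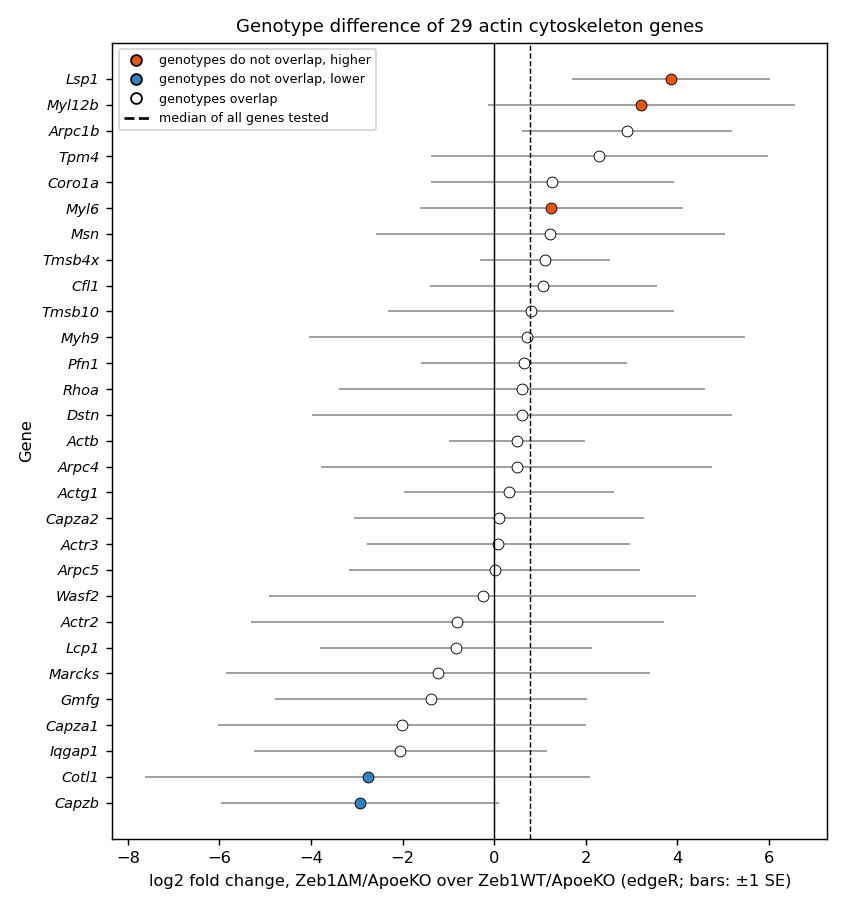
Points give the log2 fold change (x axis, Zeb1ΔM/ApoeKO over Zeb1WT/ApoeKO, edgeR) of the 29 members above 3 counts in all 5 libraries or without overlap of the genotypes (y axis), with bars of 1 SE. The dashed line is the median of all genes tested, 0.78; bars of 27 of the 29 members reach across 0, and filled points mark the 5 members whose genotypes did not overlap.

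The actins, the beta-thymosins and profilin had more than 1000 counts in all 5 libraries. *Actb*, beta-actin (chr5:142903115-142906754, minus strand), had 184488 and 489635 counts in Zeb1WT/ApoeKO and 270343, 533391 and 475674 in Zeb1ΔM/ApoeKO. *Actg1*, gamma-actin (chr11:120345690-120348542, minus strand), had 64721 and 59485 against 58349, 53728 and 81004. In both actins the genotypes overlapped. After TMM normalisation, a scaling that assumes most genes do not differ, *Actb* stood at 10444 ± 5324 CPM (SD, n = 2) in Zeb1WT/ApoeKO and 14749 ± 6716 CPM (SD, n = 3) in Zeb1ΔM/ApoeKO, a log2 fold change of 0.50 (SE 1.49). *Actg1* stood at 2035 ± 436 and 2561 ± 1960 CPM, with a log2 fold change of 0.33 (SE 2.29). Neither difference was larger than the spread between libraries.

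*Tmsb4x* (chrX:167207093-167209315, minus strand), which encodes thymosin beta 4, the main store of actin monomers in many leukocytes, had 395251 and 175450 counts in Zeb1WT/ApoeKO and 491845, 468408 and 569279 in Zeb1ΔM/ApoeKO. Every Zeb1ΔM/ApoeKO library had more counts of it than either Zeb1WT/ApoeKO library, but these are raw counts: in TMM-normalised CPM the values were 14311 and 5091 against 40586, 10952 and 11331, and the genotypes overlapped. Its log2 fold change was 1.11 (SE 1.43). *Tmsb10*, another beta-thymosin, had 16582 and 12416 counts against 19165, 23393 and 20026, with a log2 fold change of 0.81 (SE 3.12). *Pfn1*, profilin, which loads monomers onto growing filaments, had 42152 and 82380 against 61807, 83469 and 107934, and a log2 fold change of 0.65 (SE 2.25). In TMM-normalised CPM the genotypes overlapped in both, although the raw counts of *Tmsb10* did not: its values were 600.4 and 360.3 against 1581, 547 and 399. *Cap1*, which recycles monomers, had 3, 0, 4, 3 and 12 counts, at or under the floor in 3 libraries. It did not pass the filter on low counts and was not tested.

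Per exon length, in TPM (counts divided by exon length and scaled to a common total), *Tmsb4x* had the highest median over the 5 libraries, 20246, and *Actb* the next, 7742. Their ranges overlapped, 9031 to 27821 TPM for *Tmsb4x* and 6646 to 12897 for *Actb*, and *Actb* was the higher only in Zeb1WT/ApoeKO replicate 2. *Pfn1* followed with a median of 1957 TPM, then *Actg1* with 1563, *Cfl1* with 1270, *Tmsb10* with 1070 and *Coro1a* with 1034. Among these 5 neighbours each range met the next, so that the order of adjacent genes is not fixed by the libraries. Part of the order held in every library: *Pfn1*, at 1691 to 2417 TPM, lay above *Cfl1*, *Tmsb10* and *Coro1a*, and *Actg1* lay above *Tmsb10*. *Actg1* ran from 1198 to 2350 TPM and lay below *Actb* in every library.

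*Actb*, *Actg1*, *Tmsb4x*, *Tmsb10* and *Pfn1*, with *Cfl1*, *Coro1a*, *Lsp1* and *Myl6*, were the 9 members with at least 1000 counts in all 5 libraries. Their median SD of log2 CPM was 0.85, against 4.05 for the members tested. All 9 had a log2 fold change above 0, with a median of 1.08, but this direction followed the scaling and 1 library: with upper-quartile factors 6 of the 9 were below 0, and without Zeb1ΔM/ApoeKO replicate 1, whose TMM factor was 0.515 where the others were 1.03 to 1.42, 5 of the 9 were below 0. Without both libraries numbered 1, a comparison of 1 Zeb1WT/ApoeKO library with 2 libraries chosen after seeing the data, 4 were below 0. In that fit edgeR called 1 member, *Tmsb4x*, with a log2 fold change of 1.28 and an adjusted p of 3.08e-09, and 2 genes in all. It rests on a single Zeb1WT/ApoeKO library, the one with the lowest share of *Tmsb4x*, which was assumed to vary like the other 2.

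**Figure D4:**
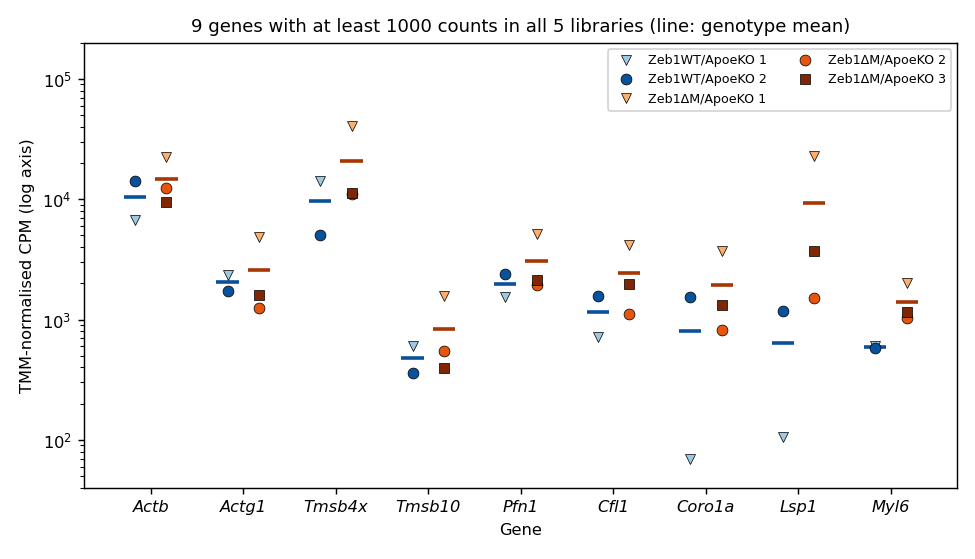
Points give TMM-normalised CPM (y axis, log scale) of the 9 members with at least 1000 counts in all 5 libraries (x axis), by library, with lines for the genotype means. Zeb1ΔM/ApoeKO replicate 1 is the highest point in each gene, and Zeb1WT/ApoeKO replicate 1 lies far below the rest in *Coro1a* and *Lsp1*.

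Genes of filament disassembly and remodelling split into well and poorly captured members. *Cfl1*, the main cofilin of non-muscle cells, had 19818 and 54378 counts against 50736, 47588 and 99172 (log2 fold change 1.08, SE 2.47). *Coro1a*, the coronin of leukocytes, had 1912 and 53277 against 45029, 35333 and 66019 (1.27, SE 2.66). The genotypes overlapped in both, and in *Coro1a* the low value came from 1 library. Without Zeb1WT/ApoeKO replicate 1 the log2 fold change of *Coro1a* was 0.20, without Zeb1WT/ApoeKO replicate 2 it was 4.47, and without both libraries numbered 1 it was -0.38.

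*Dstn*, destrin, a close relative of cofilin, had 296 and 5624 counts against 4, 6873 and 11795 (log2 fold change 0.60, SE 4.59). It was low in both libraries numbered 1. *Gmfg*, a glia maturation factor that detaches branches in blood cells, ran the other way within Zeb1WT/ApoeKO, with 30435 and 4747 counts against 3447, 510 and 20938 (-1.38, SE 3.41). Its genotypes overlapped, and without Zeb1WT/ApoeKO replicate 1 the sign turned, to 0.76. *Coro1b*, another coronin, had 0 counts in both libraries numbered 1 and 1197 to 8764 in the others.

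*Cotl1* (chr8:119809222-119840544, minus strand), coactosin-like protein, which binds filaments, had 1394 and 2309 counts in Zeb1WT/ApoeKO and 0, 245 and 1015 in Zeb1ΔM/ApoeKO. All Zeb1ΔM/ApoeKO libraries were below both Zeb1WT/ApoeKO libraries, in counts and in TMM-normalised CPM, where the means were 58.7 ± 11.7 (SD, n = 2) and 8.64 ± 10.4 (SD, n = 3). The log2 fold change was -2.76 (SE 4.87, adjusted p = 1 from edgeR).

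The Arp2/3 complex is built from 7 subunits, the actin-related proteins *Actr2* and *Actr3* and 5 others, of which *Arpc1a* and *Arpc1b* are alternative versions of 1 position. Its summed level was 489 and 5803 CPM against 7279, 2441 and 7943. *Actr2* had 3786 and 5183 counts against 8, 2762 and 9080 (log2 fold change -0.81, SE 4.51). *Actr3* had 981 and 59065 against 480, 30686 and 102722 (0.09, SE 2.87). *Actr2* was low in 1 library only, Zeb1ΔM/ApoeKO replicate 1, while *Actr3* was low in both libraries numbered 1.

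*Arpc1b*, the version used mainly by blood cells, had 65 and 52813 counts against 174597, 1734 and 142280 (log2 fold change 2.91, SE 2.29). Within Zeb1WT/ApoeKO it ran from 2.35 to 1533 TMM-normalised CPM, and Zeb1ΔM/ApoeKO replicate 2 lay between these values. The log2 fold change was 10.76 without Zeb1WT/ApoeKO replicate 2, 1.68 without Zeb1WT/ApoeKO replicate 1, 0.84 without Zeb1ΔM/ApoeKO replicate 1 and 0.06 without both libraries numbered 1. *Arpc1a* had 0, 2, 0, 0 and 3439 counts. It was detected in 1 of the 5 libraries and was not tested.

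*Arpc2*, which forms the core of the complex with *Arpc4*, had 3 and 39372 counts against 7, 24199 and 57674. *Arpc4* had 777 and 7858 against 2171, 3429 and 14167 (log2 fold change 0.49, SE 4.27). *Arpc2* was nearly lost from both libraries numbered 1, whereas *Arpc4* was detected in all 5. *Arpc3* had 0 and 2425 counts against 8, 2453 and 12647. *Arpc5* had 4217 and 34036 against 134, 22060 and 60317 (0.01, SE 3.18). The genotypes overlapped in all 8 genes of the complex.

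Although the subunits join in equal numbers, their transcripts did not stand level in any library. In Zeb1ΔM/ApoeKO replicate 3, in which all 8 genes were above the floor, they ran from 58.4 TPM (*Arpc1a*) to 1237 TPM (*Arpc2*), with a median of 617. In Zeb1WT/ApoeKO replicate 2 the highest was again *Arpc2*, at 1367 TPM, and the median was 484. In Zeb1ΔM/ApoeKO replicate 2 *Arpc2* was also the highest, at 705 TPM, but the median was 70.1. In the libraries numbered 1 the medians were 10.8 and 2.22 TPM, although *Arpc1b* reached 2431 TPM in Zeb1ΔM/ApoeKO replicate 1.

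**Figure D5:**
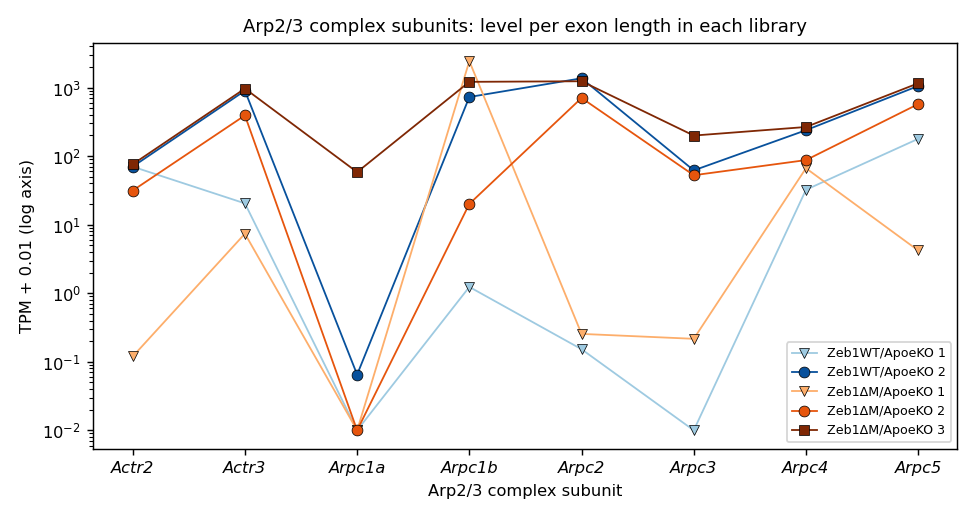
Points give TPM plus a small constant (y axis, log scale) of the 8 genes of the Arp2/3 complex (x axis), with a line for each library. The 3 libraries not numbered 1 follow a like profile apart from *Arpc1a* and *Arpc1b*, while the libraries numbered 1 fall by orders of magnitude at different subunits.

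The WASP family and the GTPases upstream of it varied among the libraries. Their summed level was 3335 and 2102 CPM in Zeb1WT/ApoeKO and 8.21, 2744 and 887 in Zeb1ΔM/ApoeKO, and 3 of the 7 genes were above the floor in Zeb1ΔM/ApoeKO replicate 1. *Wasf2*, a WAVE protein that activates Arp2/3 downstream of Rac, had 7 and 7087 counts against 25, 10716 and 327 (log2 fold change -0.25, SE 4.65). *Rhoa*, the GTPase that drives contraction, had 81 and 11500 against 107, 21189 and 13177 (0.60, SE 3.996). *Wasf2* was high in both libraries numbered 2, and *Rhoa* low in both libraries numbered 1.

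*Iqgap1*, a scaffold that binds *Cdc42*, *Rac1* and filaments, had 44370 and 12237 counts against 65, 12040 and 21308 (log2 fold change -2.05, SE 3.20). Its 2 lower Zeb1ΔM/ApoeKO values, after scaling, lay below and the third above Zeb1WT/ApoeKO replicate 2, so the genotypes overlapped. *Cdc42* had 0 counts in Zeb1ΔM/ApoeKO replicate 1 and 8790 to 50299 elsewhere. *Rac1* had 1 to 1855 counts and was at or under the floor in 2 libraries. *Was*, the WASP protein of blood cells, had 0 to 1594 counts, and *Wipf1*, its partner, 0 to 3619.

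Of the 4 capping and severing genes tested, the genotypes did not overlap in 1, and they did not overlap in 11.2% of all genes tested. *Capzb* (chr4:139192899-139291818, plus strand), the single beta subunit of capping protein, had 38616 and 59747 counts in Zeb1WT/ApoeKO and 197, 0 and 30332 in Zeb1ΔM/ApoeKO. All 3 Zeb1ΔM/ApoeKO libraries lay below both Zeb1WT/ApoeKO libraries, but they ranged widely among themselves. In TMM-normalised CPM the means were 1566 ± 237 (SD, n = 2) and 207 ± 344 (SD, n = 3), a log2 fold change of -2.92 (SE 3.04, adjusted p = 1 from edgeR). Without Zeb1ΔM/ApoeKO replicate 3 it was -7.37, and without Zeb1ΔM/ApoeKO replicate 2 it was -2.27.

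The alpha subunits, with which *Capzb* forms the capping dimer, did not share its pattern. *Capza1* had 7 and 24165 counts against 9, 4943 and 7194 (log2 fold change -2.02, SE 4.02), and *Capza2* had 103 and 38820 against 165, 41987 and 42004 (0.11, SE 3.16). Both were low in the libraries numbered 1 of each genotype, where *Capzb* had 38616 and 197 counts. Most windows of *Capza1* also occur in its processed copy, which had 0 and 9943 counts against 0, 2350 and 2941. *Capg*, a capping protein of macrophages, had 0 counts in Zeb1ΔM/ApoeKO replicate 1 and 41 to 35208 in the others. *Gsn*, gelsolin, which severs filaments, had 4, 0, 0, 10767 and 0 counts, so nearly all of its counts came from Zeb1ΔM/ApoeKO replicate 2, and it was not tested. The fibroblast markers summed to 531 CPM in that library and to 0 to 2.23 CPM in the others, almost all of it from 1 gene, *Dcn* (19005 counts there, 1 in Zeb1ΔM/ApoeKO replicate 1 and 0 in the rest), while *Col3a1*, *Pdgfra*, *Lum* and *Dpt* were at 0 in it. Its part in the *Gsn* value was not tested.

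*Lsp1* (chr7:142460809-142494867, plus strand), a leukocyte protein that binds filaments, was the member with the largest log2 fold change in the edgeR fit with TMM factors. With upper-quartile factors that of *Arpc1b* was larger (7.6 against 5.69). *Lsp1* had 2908 and 40238 counts in Zeb1WT/ApoeKO and 274871, 64033 and 185053 in Zeb1ΔM/ApoeKO. The genotypes did not overlap, with 105 and 1168 against 22682, 1497 and 3683 TMM-normalised CPM, yet the nearest libraries of either genotype were close together. The means were 636 ± 751 (SD, n = 2) and 9287 ± 11651 (SD, n = 3), and the log2 fold change was 3.87 (SE 2.16, unadjusted p = 0.0736 and adjusted p = 1 from edgeR; two-sided exact permutation test, p = 0.2). Without 1 library at a time it ran from 1.94 (without Zeb1ΔM/ApoeKO replicate 1) to 5.98 (without Zeb1WT/ApoeKO replicate 2), and without both libraries numbered 1 it was 1.3.

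The other bundling and cross-linking genes overlapped between the genotypes. *Lcp1*, L-plastin, which bundles filaments in leukocytes, had 12890 and 52481 counts against 20, 21719 and 58814 (log2 fold change -0.83, SE 2.97). *Marcks*, which ties filaments to the membrane, had 3113 and 5562 against 6, 96 and 8736 (-1.22, SE 4.63), and -6.60 without Zeb1ΔM/ApoeKO replicate 3, its highest library. Both were near the floor in Zeb1ΔM/ApoeKO replicate 1, the library with the highest value of *Lsp1*. *Flna*, filamin A, had 0 counts in Zeb1WT/ApoeKO replicate 1, 20 in Zeb1ΔM/ApoeKO replicate 1 and 7814 to 43702 in the others.

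The adhesion and membrane linkers were the role most often lost, with 1 of 7 genes, *Msn*, above the floor in all 5 libraries. Their summed level was 219 and 777 CPM against 2.67, 1172 and 1731. *Msn*, moesin, had 627 and 10825 counts against 5, 12525 and 44741 (log2 fold change 1.23, SE 3.82). *Evl*, an Ena/VASP protein that extends filaments, had 0, 1065, 2, 7284 and 0 counts and was the member of this role found in the fewest libraries. Neither separated the genotypes. *Tln1*, *Vcl*, *Zyx* and *Vasp*, at 0 to 3 counts in Zeb1WT/ApoeKO replicate 1 and 0 to 27 in Zeb1ΔM/ApoeKO replicate 1, reached 18423 counts for *Tln1*, 3365 for *Vcl*, 11994 for *Zyx* and 3179 for *Vasp* in another library. *Ezr*, ezrin, had 0 to 8475 counts. Of the 7 genes, 6 had a log2 fold change above 0, and their lowest unadjusted p was 0.599.

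In TMM-normalised CPM 3 of the 46 members tested were higher in every Zeb1ΔM/ApoeKO library, as were 6.68% of all genes tested. Of these members 2 were myosin II and tropomyosin genes. *Myl6* (chr10:128490860-128494145, minus strand), the essential light chain of non-muscle myosin II, had 16637 and 19908 counts in Zeb1WT/ApoeKO and 24543, 44068 and 57614 in Zeb1ΔM/ApoeKO. Its Zeb1WT/ApoeKO libraries stood close, at 602 and 578 TMM-normalised CPM, and the others at 2025, 1030 and 1147. The log2 fold change was 1.25 (SE 2.88, adjusted p = 1 from edgeR), and the two-sided exact permutation test gave p = 0.1, the smallest that 2 libraries against 3 allow. Without Zeb1ΔM/ApoeKO replicate 1 the log2 fold change was 0.67, and with upper-quartile factors it was -0.10.

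*Myl12b* (chr17:70973133-70990890, minus strand), a regulatory light chain, had 107 and 9654 counts against 24491, 30546 and 61616. It was higher in all 3 Zeb1ΔM/ApoeKO libraries, at 1321 ± 658 TMM-normalised CPM (SD, n = 3) against 142 ± 195 (SD, n = 2), with a log2 fold change of 3.22 (SE 3.35, adjusted p = 1 from edgeR; two-sided exact permutation test, p = 0.1). The log2 fold change was 8.14 without Zeb1WT/ApoeKO replicate 2 and 2.15 without Zeb1WT/ApoeKO replicate 1. Its near-identical neighbour *Myl12a* (chr17:70993656-71002878, minus strand) had 21291 and 27196 counts against 0, 18404 and 53366. In Zeb1WT/ApoeKO replicate 1 nearly all counts of the pair were counts of *Myl12a*, and in Zeb1ΔM/ApoeKO replicate 1 all were counts of *Myl12b*. Whether this came from the division of reads was not tested.

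The sum of both genes, which does not depend on how reads were divided between them, was 775 and 1069 TMM-normalised CPM in Zeb1WT/ApoeKO and 2021, 1145 and 2289 in Zeb1ΔM/ApoeKO. On this scale the genotypes did not overlap, but the log2 ratio of the means was 0.98, not 3.22. Per total counts, without the TMM factor of 0.515 in Zeb1ΔM/ApoeKO replicate 1, the sum was 1064 and 1065 CPM against 1005, 1368 and 2270.2, so that the genotypes overlapped, and the log2 ratio was 0.54. With *Gm49909*, a locus that shares transcript sequence with both, the log2 ratio was 1.01 in TMM-normalised CPM and 0.59 per total counts, where the genotypes overlapped too. These sums were chosen after seeing the values and were not tested.

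*Myh9*, the heavy chain of non-muscle myosin II, had 6 and 897 counts against 101, 2378 and 53 (log2 fold change 0.72, SE 4.76), few for so long a transcript, with a median of 0.56 TPM where *Myl6* had 548. *Tpm4*, a tropomyosin of non-muscle cells, had 3328 and 4817 counts against 33, 36432 and 53542 (2.30, SE 3.69). In *Tpm4* Zeb1ΔM/ApoeKO replicates 2 and 3 were above both Zeb1WT/ApoeKO libraries and replicate 1 was below them. *Tpm3* had 3 counts in Zeb1ΔM/ApoeKO replicate 1 and 3551 to 61617 in the others. The contractile smooth muscle genes *Acta2*, *Tagln*, *Cnn1*, *Myl9*, *Actg2* and *Des*, abundant in the aortic wall from which the cells were taken, had 0 counts in all 5 libraries, and 10 smooth muscle markers summed to at most 2.09 CPM.

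In all, the genotypes did not overlap in 5 of the 46 members tested, against 11.2% of all genes tested. They were *Lsp1*, *Myl6* and *Myl12b*, higher in Zeb1ΔM/ApoeKO (6.68% of all genes tested), and *Cotl1* and *Capzb*, lower (4.54%). The members' share, 10.9%, lay near that of all genes tested. Without both libraries numbered 1 it was 22 of the 46 members (47.8%), but 53.4% of all genes also did not overlap with so few libraries.

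Cell type markers that moved among the libraries are given beside these values. T cell markers summed to 10.7 and 5481 CPM in Zeb1WT/ApoeKO and 0.821, 593 and 1223 CPM in Zeb1ΔM/ApoeKO, and were lowest in the libraries numbered 1. Neutrophil markers summed to 3592 and 880 CPM against 1360, 1502 and 138. B cell markers summed to 224 and 563 CPM against 2.995, 637 and 1442, and endothelial markers, of which *Cdh5* and *Tek* were at 0 in all 5 libraries, to 73.2 and 131 against 4.23, 0.196 and 224. In these lists the genotypes overlapped. The summed red cell and platelet markers did not overlap, with 693 and 855 CPM against 8152, 4128 and 1561, but they were made of different genes. *Hba-a1* and *Hba-a2* had 60292 and 133027 counts in Zeb1ΔM/ApoeKO replicate 1 and 0 in every other library. *Pf4*, a platelet chemokine, had 13873 and 26751 counts against 2997, 147665 and 76758, lowest in Zeb1ΔM/ApoeKO replicate 1. Of the same list, *Ppbp* and *Itga2b* did not follow *Pf4*, with 0 and 2814 counts against 2, 0 and 2326 for *Ppbp*. *Itga2b* had 12 counts in Zeb1ΔM/ApoeKO replicate 1 and 0 in every other library. The summed fibroblast markers did not overlap either, with 0.149 and 0 CPM against 1.93, 531 and 2.23. The Zeb1ΔM/ApoeKO values rested on few genes, *Dcn* in replicate 2 and *Col1a2* in replicate 3 (111 counts), with *Col3a1* (20), *Pdgfra* (16) and *Col1a2* (8) in replicate 1. *Lum* and *Dpt* were at 0 in all 5 libraries. The part of these lists in the values of the members was not tested.

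Of the 66 other actin regulators 52 were tested in the same fit, edgeR called 0, and 0 had an unadjusted p under 0.05. DESeq2 called 3 (*Actn4*, *Fmnl3* and *Myo1f*) of the 38 with an adjusted p (7.89%, against 12.1% of all genes), and limma-voom called 1 (*Actn4*) of the 52 (1.92%, against 2.96%). These 3 genes had at most 8 counts in a Zeb1WT/ApoeKO library and passed the filter on low counts through Zeb1ΔM/ApoeKO, so their values are given as a description. A log2 fold change above 0 was found for 22 of the 52 (42.3%, against 60.9% of all genes tested), with a median of -0.37. The genotypes did not overlap in 9 (17.3%, against 11.2% of all genes tested), of which 5 were higher and 4 lower in Zeb1ΔM/ApoeKO.

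*Actn4*, an alpha-actinin that cross-links filaments, had 0 counts in both Zeb1WT/ApoeKO libraries and 17, 16493 and 10384 in Zeb1ΔM/ApoeKO, at least 2023-fold higher in TMM-normalised CPM against a floor of 3 counts in each Zeb1WT/ApoeKO library. Without Zeb1ΔM/ApoeKO replicate 2 this bound was 1063-fold, and without replicate 1 it was 3027-fold. *Fmnl3*, a formin, which elongates unbranched filaments, had 0 counts in Zeb1WT/ApoeKO and 13, 39 and 1592 in Zeb1ΔM/ApoeKO, at least 115-fold higher on the same terms. This bound rested on Zeb1ΔM/ApoeKO replicate 3, without which it was 10.1-fold. Neither was detected in Zeb1WT/ApoeKO, and both had few counts in Zeb1ΔM/ApoeKO replicate 1. The bounds cover counting error only, and not the loss of a gene from a library. Such losses occurred within a genotype: *Capzb* had 0 counts in Zeb1ΔM/ApoeKO replicate 2 and 30332 in replicate 3. *Myo1f*, a myosin I of leukocytes, had 8 and 4 counts against 954, 15939 and 3532 (log2 fold change 9.72, SE 7.23), and *Ssh2*, a phosphatase that activates cofilin, had 42 and 50 against 356, 14448 and 15769 (7.25, SE 6.18). *Brk1*, a subunit of the WAVE complex, had 27975 and 8423 counts against 7, 1025 and 2877 (-4.53, SE 4.04), and *Pxn*, paxillin of integrin adhesions, had 6680 and 3266 against 119, 0 and 1184 (-3.92, SE 5.03). All 4 had an adjusted p of 1 in edgeR, as had all genes tested from this list.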

How the data were processed

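RNAseq of cells sorted from aortas (CD45+ F4/80+ per the labels, CD45+ CD11b+ F4/80+ per the study's methods) was analysed in 5 libraries, grouped by the genotype in their labels, 2 Zeb1WT/ApoeKO and 3 Zeb1ΔM/ApoeKO. Per the labels and the study's methods, the authors used STAR 2.5.3a to align read pairs (build GRCm38) and RSEM 1.3.0 with GENCODE mouse version 25 to count per gene, and deposited expected counts as whole numbers without normalisation. Expected counts divide reads that fit several genes by estimation. No column was left out, and total counts per library are given with the results.

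The 49 members were found by symbol. The members, the role groups, the 66 other actin regulators and the marker lists were chosen with earlier results of these data known. Counts were taken as deposited and tested with edgeR 4.0.16 in R 4.3.3: filterByExpr with a minimum count of 10, TMM factors, the quasi-likelihood test without covariates over all 7905 genes kept, and Benjamini-Hochberg adjustment with a threshold of 0.05. DESeq2 1.42.0 with default options, which the authors used, and voom of limma 3.58.1 with sample quality weights were alternatives, with other scalings, filters, a replicate block and each library left out. DESeq2 gave no adjusted p for 8 members, which were left out of its counts. A gene was above the floor with more than 3 counts. TPM were computed from the counts and the exon lengths of GENCODE M21, which is of the same build (55141 of 55487 identifiers matched). Log2 CPM used a prior count of 2. The exact permutation test of log2 CPM covered the 10 assignments of 5 libraries to 2 and 3. Scripts were tested on simulated data.

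Counts in every library were named for the actins, thymosins, profilin, cofilin, the Arp2/3 genes, members above the floor in all 5 libraries, members whose genotypes did not overlap, and members at or under the floor in at least 3 libraries. A fold change was named for members above the floor in all 5 libraries or without overlap. Of the other actin regulators, at most 6 without overlap or called were named, by size of the log2 fold change. Shared 75-base windows and coding sequences came from GENCODE M21 transcripts and promoters from RefSeq. Python 3.11.15, scipy 1.17.1, pandas 2.3.3 and matplotlib 3.10.9 were used.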

Additional observations from a re-analysis of the deposited data

How the results depend on the processing

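The spread between libraries and losses to the floor limit these comparisons: 22 of the 49 members were at or under the floor in at least 1 library, and SEs of the named log2 fold changes ran from 1.43 to 4.87. In every setting that kept both Zeb1WT/ApoeKO libraries, edgeR called 0 of all genes tested, and so 0 members. Of the 29 named members, 8 kept the sign of their log2 fold change in every setting in which they were fitted: *Actr2*, *Arpc1b*, *Capzb*, *Cfl1*, *Cotl1*, *Lsp1*, *Marcks* and *Myl12b*. Of these, *Actr2*, *Capzb*, *Cotl1* and *Marcks* were not fitted with at least 10 counts in every library. For the values that moved, the cause was not tested.

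DESeq2 called 790 genes and 3 of the other actin regulators, and gave *Arpc5* -0.04. limma-voom called 234 genes and 1 of the other regulators, and gave *Actg1* -0.37, *Wasf2* 1.64 and *Capza1* 2.63. RLE factors gave *Arpc5* -0.05. With upper-quartile factors 19 members were higher, with a median of -0.32, and the log2 fold changes were -0.13 for *Actb*, -0.84 for *Actg1*, -0.37 for *Tmsb4x*, -0.48 for *Tmsb10*, -0.14 for *Pfn1*, -1.38 for *Dstn*, -0.44 for *Actr3*, -2.89 for *Arpc5*, 0.87 for *Wasf2*, -1.03 for *Msn*, -0.10 for *Myl6* and -2.33 for *Tpm4*. With every gene of at least 1 count, *Actg1* was -0.29 and *Wasf2* 0.09. With at least 10 counts in every library, which left 20 members, 12 were higher, with *Actb* at -0.03, *Actg1* -0.27, *Actr3* -0.18, *Arpc5* -0.24 and *Capza2* -0.12.

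The labels number the libraries, but 2 numbers shared by both genotypes do not establish a pairing (the correlation of the paired differences was 0.18). With the replicate block 0 members were called and 23 were higher, the median was -0.0218, and *Dstn* was -2.48, *Actr3* -0.55, *Arpc5* -2.36, *Wasf2* 1.63, *Msn* -2.90 and *Tpm4* -1.41. The block kept the sign but moved the size by over 1.5 times for others, among them *Capzb* (-11.85), *Cotl1* (-7.54), *Marcks* (-6.99), *Myl12b* (5.17), *Lcp1* (-4.85), *Actr2* (-4.43) and *Iqgap1* (-4.27).

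Leaving out a Zeb1WT/ApoeKO library leaves 1, which was assumed to vary like the others. Over the fits without each library in turn the members' median ran from -0.15 (without Zeb1ΔM/ApoeKO replicate 3) to 4.31 (without Zeb1WT/ApoeKO replicate 2, where that of all genes was 6.32). The members without overlap of the genotypes ran from 9 to 26 of 46 (19.6% to 56.5%), the latter without Zeb1WT/ApoeKO replicate 2, where 29.5% of all genes tested did not overlap. Without Zeb1WT/ApoeKO replicate 1 the shares were 30.4% of members and 39.4% of all genes, and without a Zeb1ΔM/ApoeKO library 19.6% of members and 20.5% to 24.2% of all genes. The log2 fold changes ran from -0.08 to 0.88 for *Actb*, -0.74 to 0.75 for *Actg1*, -0.09 to 1.90 for *Tmsb4x*, -0.27 to 1.31 for *Tmsb10*, -0.11 to 1.01 for *Pfn1*, -0.19 to 3.65 for *Dstn*, -2.41 to 0.76 for *Gmfg*, -1.20 to 4.74 for *Actr3*, -0.34 to 2.52 for *Arpc4* and -1.12 to 1.94 for *Arpc5*. They ran from -4.55 to 8.40 for *Wasf2*, -0.28 to 6.46 for *Rhoa*, -2.90 to 8.42 for *Capza1*, -0.77 to 7.37 for *Capza2*, -1.97 to 0.29 for *Lcp1*, -0.21 to 4.15 for *Msn* and -1.61 to 6.56 for *Myh9*. Without a change of sign they ran from -2.15 to -0.44 for *Actr2*, 0.84 to 10.76 for *Arpc1b*, -7.37 to -2.27 for *Capzb*, 0.27 to 1.44 for *Cfl1*, 0.20 to 4.47 for *Coro1a*, -4.37 to -2.38 for *Cotl1*, -2.79 to -0.47 for *Iqgap1*, 1.94 to 5.98 for *Lsp1*, -6.60 to -0.58 for *Marcks*, 2.15 to 8.14 for *Myl12b*, 0.67 to 1.52 for *Myl6* and 1.70 to 2.68 for *Tpm4*.

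Without both libraries numbered 1, a fit chosen after seeing the data, 2 genes and 1 member (*Tmsb4x*) were called, 22 members (47.8%, against 53.4% of all genes) did not overlap and 42 were above the floor in every library. *Actb* was -0.22, *Actg1* -0.11, *Pfn1* -0.07, *Coro1a* -0.38, *Gmfg* 0.80, *Actr3* -0.16, *Arpc4* -0.18, *Arpc5* -0.05, *Iqgap1* 0.14 and *Capza2* -0.16. Without *Tmsb4x*, *Actb* and *Lsp1* the members held 1.78% and 2.54% of counts in Zeb1WT/ApoeKO and 1.91%, 2.12% and 2.83% in Zeb1ΔM/ApoeKO.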
